A study of Mus musculus with 6 samples.

Results

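The 39 genes described here are the immediate-early genes, the AP-1 transcription factors and the inducible heat shock genes of newborn mouse epidermal cells. They were chosen by name, with earlier results of these data known, and all 39 were among the 17025 genes of the deposited table. Expression was measured by RNA-seq on total RNA of epidermal progenitor cells at postnatal day 0 (P0), sorted as positive for integrin α6, a receptor by which basal keratinocytes hold to the basement membrane. Per the labels, 3 libraries came from conditional knockout (cKO) mice of genotype K14Cre,Ash2lF/F, with both Ash2l alleles floxed, and 3 from control mice of genotype K14Cre,Ash2lF/+, with 1 floxed allele. Both groups carry K14Cre, which acts where the keratin 14 promoter is active, chiefly in basal keratinocytes and their descendants. The product of Ash2l is shared by the enzyme complexes that methylate histone H3 at lysine 4. The labels name no separate litters or animals, so the p-values cover the spread between these libraries, which may be technical in part. Control 1 held almost no RNA of Y-linked genes (0.0231 FPKM, against 29.3 and 36.7 FPKM in control 2 and 3). Control 1 was therefore not made from the same cells as control 2 and 3. Whether other libraries of a group share animals is not known here.

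Immediate-early genes are transcribed within minutes of a growth factor, stress or mechanical signal, without new protein synthesis, from promoters held ready by serum response factor and CREB family proteins. Many encode transcription factors, among them the FOS and JUN proteins, which pair through leucine zippers to form AP-1. Others encode the phosphatases and RNA-binding proteins that end the response. Heat shock genes are driven by heat shock factor 1 and encode chaperones that refold damaged proteins. In epidermis AP-1 acts in wound repair, inflammation and keratinocyte differentiation.

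The targeted gene went against the labels. Ash2l had 30.9, 29.5 and 22.9 FPKM in the libraries labelled cKO 1, 2 and 3, against 12.4, 18.1 and 15.9 FPKM in those labelled control 1, 2 and 3. FPKM is a fragment density corrected for gene length and library total. Its difference was 0.81 (SE 0.19, limma adjusted p = 0.0240), and a gene total does not show whether a floxed exon was lost. The groups are therefore called by their labels throughout, and each direction below rests on labels that this gene went against. The deposited columns carry codes that begin with A-C for the libraries labelled control and with A-W for those labelled cKO. What these letters stand for is not known here. The call of Ash2l was lost on leaving out control 1 (adjusted p = 0.0564), control 3 (0.0670), cKO 1 (0.0828) or cKO 2 (0.0808), and with a replicate block (0.0613).

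The libraries held 33622416 to 36027550 fragments in those labelled cKO, against 31578875 to 33053422 fragments in those labelled control. Single members had from 0 to 34648 fragments in a library. All 6 basal keratinocyte markers were detected, with summed levels of 5713 to 6764 FPKM in the libraries labelled cKO and 4303 to 7750 FPKM in those labelled control. The 4 suprabasal markers summed to 34245 to 67271 FPKM in the libraries labelled cKO, against 4352 to 6253 FPKM in those labelled control. In bulk libraries, basal cells that hold this RNA cannot be told apart from suprabasal cells. Melanocyte markers (6) summed to 165 to 353 FPKM in the libraries labelled cKO and 2761 to 3146 FPKM in those labelled control, and Schwann cell markers (4) to 6.85 to 18.6 FPKM in the libraries labelled cKO and 80.4 to 140 FPKM in those labelled control. Fibroblast markers (6) summed to 437, 406 and 146 FPKM in the libraries labelled cKO 1, 2 and 3, against 95.1, 164 and 336 FPKM in those labelled control 1, 2 and 3. Leukocyte markers (5 of 6 in the table) reached 8.52 FPKM in the libraries labelled cKO and 14.4 FPKM in those labelled control, in control 1. No marker in the table was at 0 in every library. The part of these cells in the results below was not tested, and in bulk libraries fewer cells of a type cannot be told apart from less RNA per cell. The 4 Y-linked genes summed to 44.8, 16.3 and 26.6 FPKM in the libraries labelled cKO 1, 2 and 3, against 0.0231, 29.3 and 36.7 FPKM in those labelled control 1, 2 and 3.

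Of the 39 genes, 17 were lower in the libraries labelled cKO and none was higher (limma on log2(FPKM + 1), Benjamini-Hochberg adjusted p under 0.05 over 11603 genes tested). Over all genes tested, 13.6% were called lower and 5.87% higher. The median difference of the 39 was -1.02, beside -0.17 over all genes tested. In the libraries labelled cKO, 22 members lay below all those labelled control, where 30.9% of all genes tested did so, and 2 lay above, where 12% did. Without control 1 the corresponding counts were 23 and 4, where 39.7% and 16.9% of all genes did so. All 39 passed the filter of a mean of 1 FPKM. For 6 of them (Fosb, Fosl1, Nr4a2, Nr4a3, Dusp5 and Ptgs2) the mean was below 1 FPKM in the libraries labelled cKO, so that they passed through the control libraries. All 6 were among the 17 called lower, and the filter fixed the direction of their means. With a filter at a mean of 5 FPKM, 10 of the 31 members tested were lower, where 13.8% of all genes were. The 17 became 11 without the library labelled cKO 2. With median-of-ratios factors the median of all genes was 0.03, 14 members were lower and none higher, and the calls over all genes changed to 1044 higher (9%) and 1001 lower (8.63%), against 681 and 1576. Over all genes, 9.32, 6.15 and 6.77% were lower without control 1, 2 and 3, and 8.39, 7.91 and 12.4% without cKO 1, 2 and 3. The shares were 7.87% with no filter, 13.8% with a filter at 5 FPKM, 7.7% with a replicate block, 8.12% with limma-voom, and 20.6% on the 4 libraries left without control 1 and cKO 3, a set chosen after seeing the data, where the median of the 39 was -0.66.

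The library labelled control 1 stood apart from the other 2 in these genes. There, 14 members were at least 1 log2 unit (2-fold, on log2(FPKM + 1)) above both other control libraries, against 1.21% of all genes tested, and no member lay that far below. No member stood out in this way in the libraries labelled cKO 1 or 2 or control 2 or 3. In cKO 3, Hsph1 stood above and Dusp4, Dusp6 and Socs3 below, where 1.15% and 6.56% of all genes did. The 14 raised in control 1 were Fos, Fosb, Jun, Junb, Atf3, Nr4a1, Nr4a3, Egr1, Csrnp1, Ier3, Dusp1, Zfp36, Ptgs2 and Hspa1a. For 6 of them (Fos, Atf3, Egr1, Dusp1, Zfp36 and Hspa1a) the ranges of both groups overlapped, and for the other 8 the libraries labelled cKO lay below all 3. Between the libraries labelled control 1 and control 2 the median absolute difference over the 39 genes was 0.70 on log2(FPKM + 1), against 0.30 over all genes tested, and between control 2 and control 3 it was 0.24 against 0.19. Control 1 was also the one library with almost no Y-linked reads and the control library with the lowest fibroblast sum. It had the highest basal keratinocyte sum (7750 FPKM, against 4693 and 4303 FPKM in control 2 and 3) and the highest Schwann cell sum (140 FPKM, against 91.2 and 80.4 FPKM). The part of any of these in its levels was not tested.

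**Figure D1:**
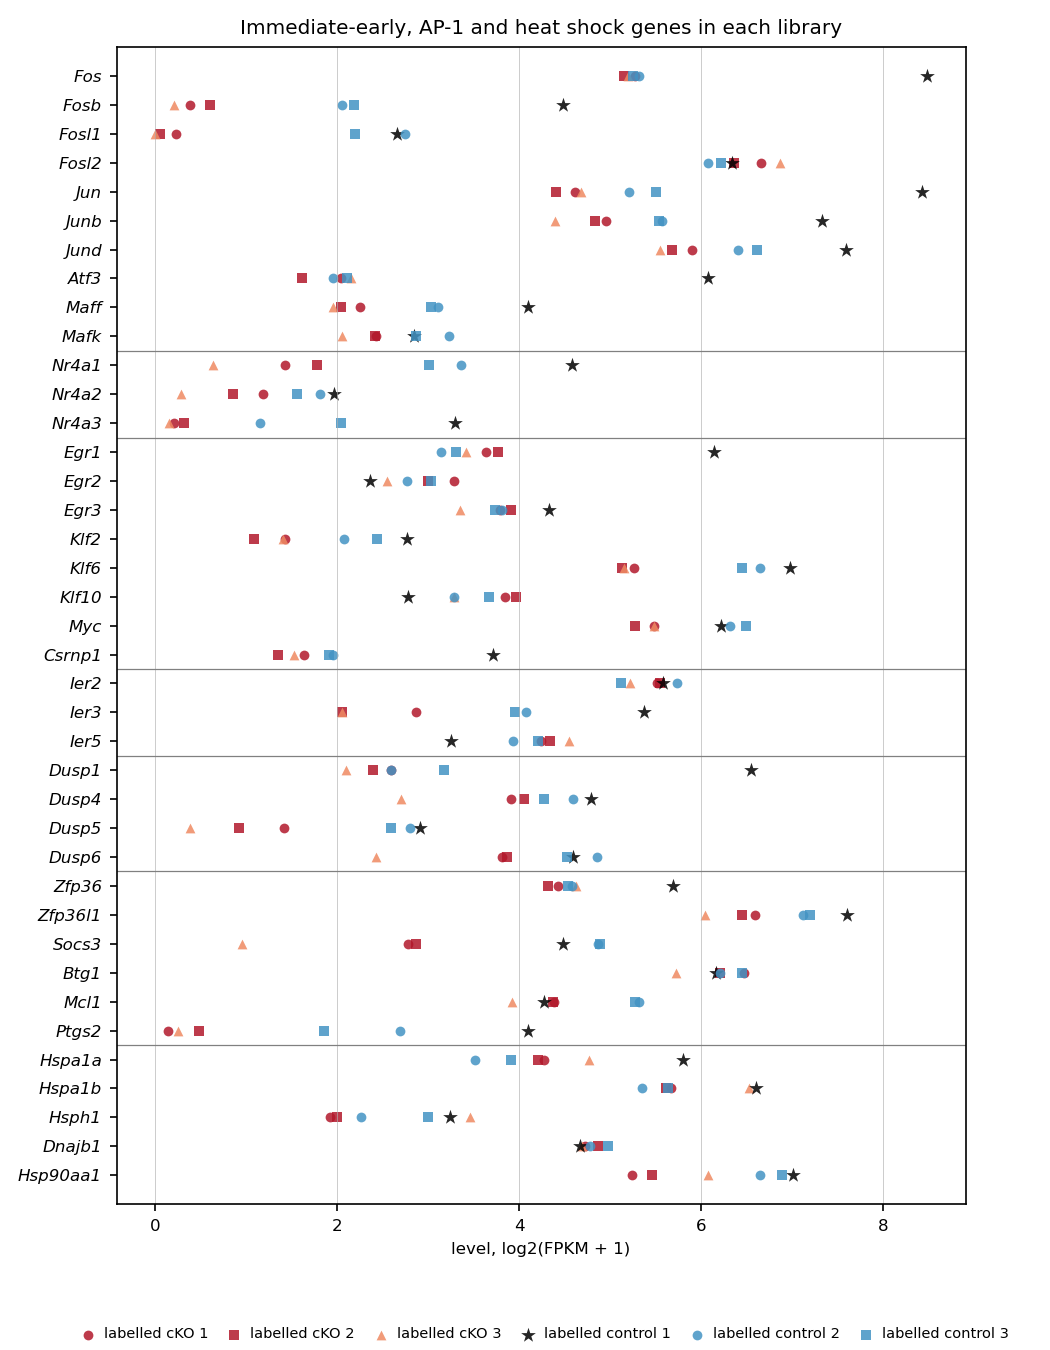
Level of each of the 39 genes in each of the 6 libraries, on log2(FPKM + 1), with lines between the roles; points are single libraries. The library labelled control 1 (star) lies far to the right for Fos (357 FPKM), Jun (344 FPKM), Atf3, Egr1 and Dusp1, while Klf6, Myc, Dusp5 and Hsp90aa1 separate all libraries labelled cKO from all those labelled control.

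**Figure D2:**
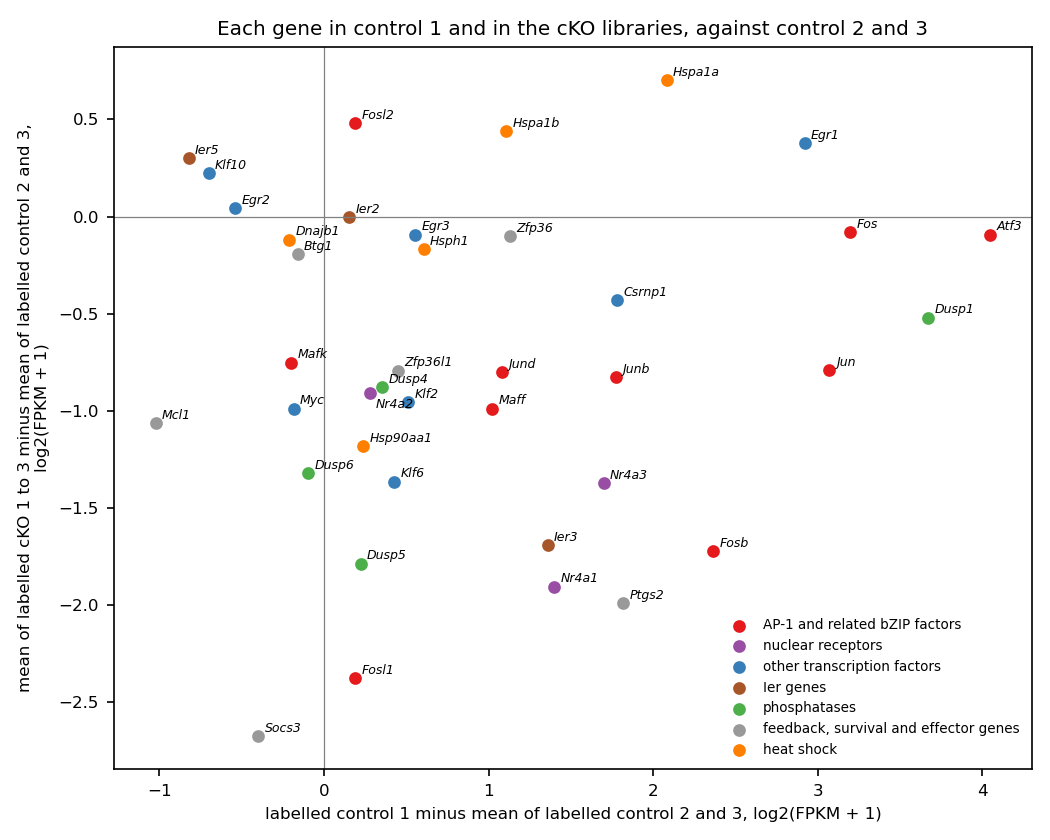
Each gene by its level in the library labelled control 1 (horizontal) and its mean level in the libraries labelled cKO (vertical), both as differences from the mean of those labelled control 2 and 3 on log2(FPKM + 1). Atf3, Dusp1, Fos, Jun and Egr1 lie farthest right, and Socs3, Fosl1, Ptgs2 and Nr4a1 lie lowest.

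Among the AP-1 factors, 4 of 10 were lower in the libraries labelled cKO (Fosb, Fosl1, Jund and Maff) and none was higher, with a median difference of -1.37. Over all genes tested, 13.6% were lower and 5.87% higher, with a median of -0.17. Without control 1 the median of the AP-1 factors was -0.79 and 6 were lower, where 9.32% of all genes were, with a median of -0.18. Fos, the founding partner of JUN, was at 37.6, 34.6 and 35.6 FPKM in the libraries labelled cKO 1, 2 and 3, against 357, 38.9 and 37.1 FPKM in those labelled control 1, 2 and 3. Control 1 was 9.41-fold above the mean of the other 2, and those 2 lay close to or inside the range of the libraries labelled cKO. The difference of Fos was -1.15 (SE 0.77, limma adjusted p = 0.328), and -0.08 (SE 0.12, adjusted p = 0.688) without control 1.

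Fosb, a FOS protein of the acute response, was at 0.307, 0.513 and 0.154 FPKM in the libraries labelled cKO 1, 2 and 3, against 21.4, 3.14 and 3.56 FPKM in those labelled control 1, 2 and 3. All libraries labelled cKO lay below all those labelled control, also without control 1. It fell by 2.51 on the log2(FPKM + 1) scale (SE 0.60, limma adjusted p = 0.0263), and by 1.72 without control 1 (adjusted p = 0.0114). Its call was lost without cKO 1, 2 or 3 (adjusted p = 0.0594, 0.0540 and 0.0586). Fosl1, which encodes FRA1, an AP-1 partner of migrating keratinocytes at wound edges, was at 0.174, 0.0345 and 0 FPKM in the libraries labelled cKO, that is 10, 2 and 0 fragments. In those labelled control it was at 5.31, 5.70 and 3.58 FPKM, with 286, 321 and 200 fragments. The groups were far apart, and control 1 did not stand out here. Fosl1 fell by 2.44 (SE 0.24, limma adjusted p = 0.00136), with adjusted p of at most 0.0170 in the 13 alternatives in which it was tested.

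Fosl2 encodes FRA2, another partner of JUN. It was at 100.4, 81.2 and 116 FPKM in the libraries labelled cKO 1, 2 and 3, against 79.9, 66.5 and 73.7 FPKM in those labelled control 1, 2 and 3, the ranges touching closely without overlap. The difference of 0.42 (SE 0.16) did not pass the test (limma adjusted p = 0.103). As a share of the summed Fos family (FPKM, per length), Fosl2 made up 72.5, 69.8 and 76.4% in the libraries labelled cKO, against 17.2, 58.2 and 62.5% in those labelled control. This share, chosen after its values were seen, is given as a description. In control 1, where it was lowest, Fos made up 77.0% of the sum.

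The 3 Jun genes were lowest in the libraries labelled cKO and highest in control 1. Jun was at 23.6, 20.2 and 24.7 FPKM in the libraries labelled cKO 1, 2 and 3, against 344, 36.1 and 44.4 FPKM in those labelled control 1, 2 and 3. Junb, known in mouse skin as a brake on inflammation, was at 30.0, 27.5 and 20.1 FPKM in the libraries labelled cKO, against 160, 46.5 and 45.6 FPKM in those labelled control. Jund, the most constant of the family, was at 58.9, 50.5 and 45.8 FPKM in the libraries labelled cKO, against 192, 84.1 and 97.1 FPKM in those labelled control. For each of the 3 genes the groups did not overlap, with or without control 1. Of all genes tested, 30.9% lay lower in this way with all 6 libraries and 39.7% without control 1. Jund was called (-1.16, SE 0.29, limma adjusted p = 0.0306), while Jun (-1.81, SE 0.75, adjusted p = 0.129) and Junb (-1.42, SE 0.46, adjusted p = 0.0644) were not. Without control 1 the differences were smaller and all 3 were called: Jun at -0.79 (SE 0.16, adjusted p = 0.0307), Junb at -0.83 (SE 0.19, adjusted p = 0.0416) and Jund at -0.80 (SE 0.15, adjusted p = 0.0261), where 9.32% of all genes were lower. The call of Jund was lost without control 3, cKO 1, cKO 2 or cKO 3 (adjusted p = 0.0600, 0.0513, 0.0738 and 0.0673) and with median-of-ratios factors (adjusted p = 0.0615). The summed Jun family came to 113, 98.2 and 90.6 FPKM in the libraries labelled cKO, against 697, 167 and 187 FPKM in those labelled control.

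**Figure D3:**
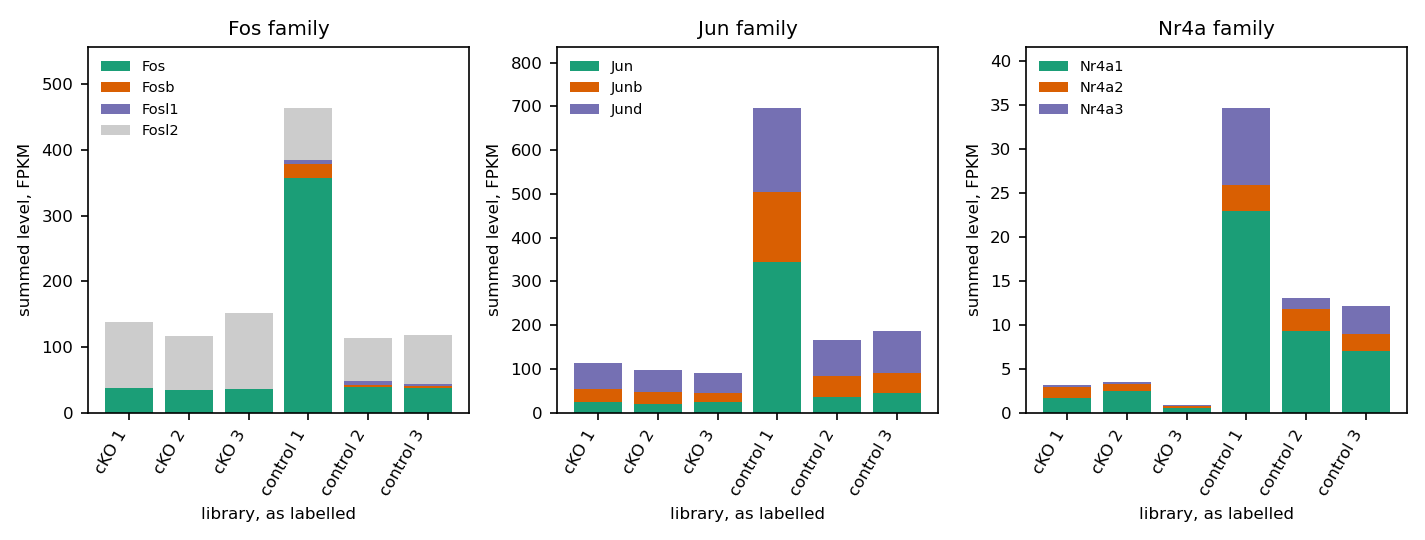
Summed level (FPKM) of the Fos, Jun and Nr4a families in each library, stacked by gene. The Fos sums are 139, 116 and 151 FPKM in the libraries labelled cKO 1, 2 and 3, against 114 and 118 FPKM in control 2 and 3. The Jun and Nr4a sums of each library labelled cKO are below those of every control library, and control 1 is the highest in all 3 panels.

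Atf3, a stress-induced partner of JUN, was at 3.13, 2.07 and 3.45 FPKM in the libraries labelled cKO 1, 2 and 3, against 66.7, 2.89 and 3.30 FPKM in those labelled control 1, 2 and 3. Control 1 was 21.5-fold above the mean of control 2 and 3, and those 2 lay inside the cKO range (difference -1.44, SE 0.99, limma adjusted p = 0.335, and -0.09 without control 1). The small MAF proteins, which lack an activation domain, are encoded by Maff and Mafk. Maff was at 3.76, 3.13 and 2.88 FPKM in the libraries labelled cKO, against 16.1, 7.63 and 7.21 FPKM in those labelled control (-1.33, SE 0.30, limma adjusted p = 0.0212), and its call was lost without cKO 2 (adjusted p = 0.0594). Mafk was at 4.36, 4.34 and 3.15 FPKM in the libraries labelled cKO, against 6.21, 8.39 and 6.30 FPKM in those labelled control, without overlap and just short of the threshold (-0.69, SE 0.21, limma adjusted p = 0.0544). The 4 AP-1 factors called lower became 2 without cKO 1, 1 without cKO 2 and 2 without cKO 3. In these fits 8.39, 7.91 and 12.4% of all genes were lower, so 1 of 10 without cKO 2 was near that share. Of the opposite-strand neighbours in the GENCODE M21 annotation, exons of Ccdc85b, Junos, Prdx2, Gm11175 and Tmem184a overlap those of Fosl1, Jun, Junb, Jund and Mafk. Outside AP-1 the same holds for Csrnp1, Dusp1, Dusp5, Zfp36, Zfp36l1 and Hspa1a, making 11 members in all. The sources used here do not give the strand setting, so reads of such pairs cannot be told apart.

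The 3 Nr4a genes encode orphan nuclear receptors that are induced as immediate-early genes downstream of cyclic AMP and CREB. All 3 were called lower in the libraries labelled cKO, where 13.6% of all genes tested were. Their median difference was -1.94, beside -0.17 over all genes tested. With a filter at a mean of 5 FPKM, only 1 of the 3 (Nr4a1) was tested, and it was called. Nr4a1 was at 1.69, 2.44 and 0.553 FPKM in the libraries labelled cKO 1, 2 and 3, against 23.0, 9.32 and 7.04 FPKM in those labelled control 1, 2 and 3. It fell by 2.37 (SE 0.45, limma adjusted p = 0.0116) and by 1.91 without control 1 (adjusted p = 0.0261), and its call held in 14 of 14 alternatives. Nr4a2 was at 1.27, 0.810 and 0.222 FPKM in the libraries labelled cKO, against 2.90, 2.52 and 1.94 FPKM in those labelled control. Nr4a3 was at 0.151, 0.249 and 0.111 FPKM in the libraries labelled cKO, against 8.83, 1.22 and 3.12 FPKM in those labelled control. No library labelled cKO reached any labelled control in these 3 genes, as for 30.9% of all genes tested. The library labelled cKO 3 was the lowest in each, as for 44.0% of all genes tested.

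The calls of Nr4a2 and Nr4a3 did not hold when libraries were left out, although both differences stayed below 0. Nr4a2 (-1.0, SE 0.29, limma adjusted p = 0.0451) was not called without any 1 of the 6 libraries: adjusted p = 0.107, 0.116 and 0.0800 without control 1, 2 and 3, and 0.0522, 0.105 and 0.0730 without cKO 1, 2 and 3. Its differences were then between -1.21 and -0.76. Nr4a3 (-1.94, SE 0.49, limma adjusted p = 0.0314) lost its call without control 3 (adjusted p = 0.0809) and without cKO 1, 2 or 3 (adjusted p = 0.0725, 0.0693 and 0.0636), where its differences were between -2.0 and -1.9, and it fell under the filter of 1 FPKM without control 1. The 3 nuclear receptors called thus became 1 without control 1, control 3 or any library labelled cKO, where 6.77 to 12.4% of all genes were lower. Nr4a2 was also lost with a replicate block (adjusted p = 0.0693) and with median-of-ratios factors (adjusted p = 0.0637).

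The Nr4a promoters are shown because the 3 genes are known targets of CREB and were all lower in the libraries labelled cKO. RefSeq (build GRCm38.p6) gave a promoter for 31 of the 39 genes, 42 entries in all. Each sequence holds the 250 bases before the start of transcription, 5′ to 3′ on the gene's strand, with TGACG or its complement CGTCA, the core site of the cyclic AMP response element, in capitals. The regions are chr15:101266596-101266845, plus strand, for Nr4a1, chr2:57124004-57124253, minus strand, for Nr4a2, and chr4:48045055-48045304, plus strand, for Nr4a3.
Nr4a1: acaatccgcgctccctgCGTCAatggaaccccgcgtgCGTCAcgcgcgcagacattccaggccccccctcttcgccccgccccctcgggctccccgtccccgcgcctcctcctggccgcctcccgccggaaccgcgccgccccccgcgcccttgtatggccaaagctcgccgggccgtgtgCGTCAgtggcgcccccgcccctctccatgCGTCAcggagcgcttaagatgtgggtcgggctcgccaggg
Nr4a2: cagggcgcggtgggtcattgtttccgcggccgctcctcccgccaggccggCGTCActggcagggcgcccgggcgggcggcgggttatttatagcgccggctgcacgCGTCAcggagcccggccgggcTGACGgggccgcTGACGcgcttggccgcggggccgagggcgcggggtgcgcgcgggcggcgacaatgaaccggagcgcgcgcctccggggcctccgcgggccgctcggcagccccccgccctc
Nr4a3: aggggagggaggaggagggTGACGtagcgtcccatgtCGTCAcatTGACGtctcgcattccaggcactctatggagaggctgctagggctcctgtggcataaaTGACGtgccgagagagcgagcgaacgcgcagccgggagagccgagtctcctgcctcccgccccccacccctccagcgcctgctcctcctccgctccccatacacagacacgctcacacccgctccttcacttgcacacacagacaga
Each of the 3 holds 4 core sites, whereas 0.137% of 32851 RefSeq promoters hold 4 or more. In Nr4a1 they start 233, 213, 69 and 40 bases before the start site. At least 1 core site was found in 22 of the 42 promoters of these genes (52.4%) and in 17.8% of all promoters. The full element TGACGTCA, which reads the same on both strands and holds 2 overlapping core sites, occurred in 2 of the 42 and in 1.55% of all. A match of letters is a description and not evidence of binding.

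Of the other transcription factors, 3 of 8 (Klf2, Klf6 and Myc) were lower in the libraries labelled cKO, with a median of -0.76. The share over all genes tested was 13.6%, with a median of -0.17. Without control 1 these 3 were also called, and the median of the 8 was -0.26, with 5 below 0. There, 9.32% of all genes were lower, with a median of -0.18. Klf6, a zinc finger factor of stress and wounding, was at 37.5, 34.0 and 34.7 FPKM in the libraries labelled cKO 1, 2 and 3, against 125, 99.3 and 86.5 FPKM in those labelled control 1, 2 and 3. It fell by 1.51 (SE 0.16, limma adjusted p = 0.00169). Myc, a driver of cell growth, was at 43.9, 37.6 and 43.8 FPKM in the libraries labelled cKO, against 73.6, 78.8 and 88.9 FPKM in those labelled control (-0.93, SE 0.13, adjusted p = 0.00426). In both genes the libraries within a group lay close together, control 1 included, and both calls held in 14 of 14 alternatives. Klf2, better known from endothelium and T cells, was lower at 1.69, 1.12 and 1.64 FPKM in the libraries labelled cKO, against 5.82, 3.22 and 4.42 FPKM in those labelled control (-1.13, SE 0.25, limma adjusted p = 0.0188). Its call was lost without control 3 or cKO 2 (adjusted p = 0.0622 and 0.0719). Endothelial markers (5) summed to 0.939 to 6.93 FPKM in the libraries labelled cKO and 2.21 to 4.57 FPKM in those labelled control.

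The 3 EGR genes, zinc finger factors placed directly downstream of ERK and serum response factor, were not called. Egr1 was at 11.4, 12.6 and 9.65 FPKM in the libraries labelled cKO 1, 2 and 3, against 69.9, 7.84 and 8.90 FPKM in those labelled control 1, 2 and 3. Control 1 lay far above the rest, and control 2 and 3 lay below every library labelled cKO. The difference was -0.60 (SE 0.72, limma adjusted p = 0.590) with all 6 libraries and 0.38 (SE 0.18, adjusted p = 0.202) without control 1. On the 4 libraries left without control 1 and cKO 3, Egr1 was called higher (0.47, adjusted p = 0.0469), where 10.1% of all genes were. Egr2 ranged from 4.83 to 8.76 FPKM in the libraries labelled cKO and from 4.13 to 7.15 FPKM in those labelled control, and Egr3 from 9.22 to 14.0 FPKM in the libraries labelled cKO and from 12.3 to 19.1 FPKM in those labelled control. Klf10, a target of TGF-beta, ranged from 8.73 to 14.6 FPKM in the libraries labelled cKO and from 5.84 to 11.7 FPKM in those labelled control. These 3 overlapped between the groups, and control 1 was the lowest library for Egr2 and Klf10. Csrnp1 was at 2.11, 1.54 and 1.87 FPKM in the libraries labelled cKO, against 12.1, 2.87 and 2.76 FPKM in those labelled control, and did not pass the test (-1.02, SE 0.47, limma adjusted p = 0.163).

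The 3 Ier genes, short immediate early response genes, differed among themselves. Ier3, whose product limits stress-induced apoptosis, was at 6.30, 3.15 and 3.16 FPKM in the libraries labelled cKO 1, 2 and 3, against 40.5, 15.9 and 14.5 FPKM in those labelled control 1, 2 and 3. It fell by 2.14 (SE 0.41, limma adjusted p = 0.0113), and by 1.69 without control 1 (adjusted p = 0.0203). Ier2 lay between 36.2 and 45.7 FPKM in the libraries labelled cKO and between 33.9 and 52.2 FPKM in those labelled control, fully overlapping (-0.05, SE 0.19, limma adjusted p = 0.870). Ier5 was at 17.9, 19.2 and 22.4 FPKM in the libraries labelled cKO, against 8.52, 14.3 and 17.5 FPKM in those labelled control. Every library labelled cKO lay above every control, by little over control 3, and the difference did not pass the test (0.58, SE 0.25, limma adjusted p = 0.150). Control 1 was the lowest of the 6 libraries for Ier5.

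The 4 dual-specificity phosphatases dephosphorylate MAP kinases and so end the signal that induces them. Dusp5 and Dusp6 were called lower in the libraries labelled cKO, where 13.6% of all genes tested were, and Dusp1 and Dusp4 were not. Dusp1, the phosphatase of p38 and JNK, was at 5.04, 4.25 and 3.27 FPKM in the libraries labelled cKO 1, 2 and 3, against 92.8, 5.02 and 8.01 FPKM in those labelled control 1, 2 and 3. Control 1 was 14.2-fold above the mean of control 2 and 3, and control 2 lay inside the range of the libraries labelled cKO. The difference of Dusp1 was -1.74 (SE 0.90, limma adjusted p = 0.211) and -0.52 without control 1 (adjusted p = 0.219). The Fos and Dusp1 promoters are shown as examples of genes raised in control 1, with the core site in capitals as above (chr12:85473640-85473889, plus strand, and chr17:26508473-26508722, minus strand, GRCm38.p6, RefSeq).
Fos: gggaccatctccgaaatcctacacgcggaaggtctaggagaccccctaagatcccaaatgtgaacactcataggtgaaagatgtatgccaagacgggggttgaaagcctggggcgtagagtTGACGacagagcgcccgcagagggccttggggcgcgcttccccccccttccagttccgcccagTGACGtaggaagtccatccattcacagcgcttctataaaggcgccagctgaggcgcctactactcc
Dusp1: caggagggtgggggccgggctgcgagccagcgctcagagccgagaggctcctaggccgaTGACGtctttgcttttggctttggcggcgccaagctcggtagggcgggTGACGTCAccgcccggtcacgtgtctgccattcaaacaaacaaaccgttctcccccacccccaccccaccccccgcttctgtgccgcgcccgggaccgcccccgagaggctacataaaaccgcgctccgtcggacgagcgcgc
Fos holds core sites 129 and 66 bases before the start site, and Dusp1 holds the full element 143 bases before it.

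Dusp5 was at 1.66, 0.890 and 0.306 FPKM in the libraries labelled cKO 1, 2 and 3, against 6.54, 5.95 and 5.01 FPKM in those labelled control 1, 2 and 3. Control 1 was close to the other control libraries, and no library labelled cKO came near them. It fell by 1.86 (SE 0.29, limma adjusted p = 0.00557). Dusp6 was at 13, 13.6 and 4.40 FPKM in the libraries labelled cKO, against 23.2, 27.9 and 22.1 FPKM in those labelled control (-1.29, SE 0.37, limma adjusted p = 0.0453). Dusp4 was at 14.1, 15.6 and 5.49 FPKM in the libraries labelled cKO, against 26.6, 23.2 and 18.3 FPKM in those labelled control (-1.0, SE 0.35, adjusted p = 0.0858). In all 4 phosphatases cKO 3 was the lowest library, as for 44.0% of all genes tested. Without cKO 3 the difference of Dusp6 was -0.82. Its call was lost without control 1, 2 or 3 (adjusted p = 0.101, 0.137 and 0.103) and with median-of-ratios factors (adjusted p = 0.0564). This left 1 of 2 phosphatases called in each case, where 6.15 to 9.32% of all genes were lower.

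Of the feedback, survival and effector genes, 3 of 6 (Zfp36l1, Socs3 and Ptgs2) were lower in the libraries labelled cKO, with a median of -0.83. Over all genes tested, 13.6% were lower, with a median of -0.17. Socs3, the feedback inhibitor of JAK-STAT3 signalling, was at 5.84, 6.31 and 0.945 FPKM in the libraries labelled cKO 1, 2 and 3, against 21.3, 28.1 and 28.7 FPKM in those labelled control 1, 2 and 3. It fell by 2.54 (SE 0.48, limma adjusted p = 0.0110), and control 1 was the lowest of the control libraries. Ptgs2, which encodes cyclooxygenase 2, was at 0.1, 0.395 and 0.187 FPKM in the libraries labelled cKO, against 16.1, 5.47 and 2.63 FPKM in those labelled control (-2.59, SE 0.51, limma adjusted p = 0.0130). It had 15, 60 and 30 fragments in the libraries labelled cKO, against 2268, 807 and 384 in those labelled control. Zfp36l1, whose product binds AU-rich elements and speeds mRNA decay, was at 95.6, 86.7 and 65.2 FPKM in the libraries labelled cKO, against 194, 138 and 146 FPKM in those labelled control (-0.94, SE 0.19, limma adjusted p = 0.0138).

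Zfp36 encodes tristetraprolin, a related decay factor. It was at 20.5, 19.0 and 23.7 FPKM in the libraries labelled cKO 1, 2 and 3, against 50.7, 22.9 and 22.3 FPKM in those labelled control 1, 2 and 3, where control 1 alone was high (-0.48, SE 0.30, limma adjusted p = 0.297). Mcl1, a short-lived survival factor of the BCL2 family, was at 19.9, 19.8 and 14.2 FPKM in the libraries labelled cKO, against 18.3, 38.8 and 37.7 FPKM in those labelled control. Control 1 lay among the libraries labelled cKO, below the other controls. Mcl1 did not pass the test with all 6 libraries (-0.72, SE 0.29, adjusted p = 0.127) and was called without control 1 (-1.06, SE 0.19, limma adjusted p = 0.0209). Btg1, an antiproliferative gene, ranged from 51.8 to 88.1 FPKM in the libraries labelled cKO and from 71.0 to 86.8 FPKM in those labelled control (-0.14, SE 0.20, limma adjusted p = 0.660).

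**Figure D4:**
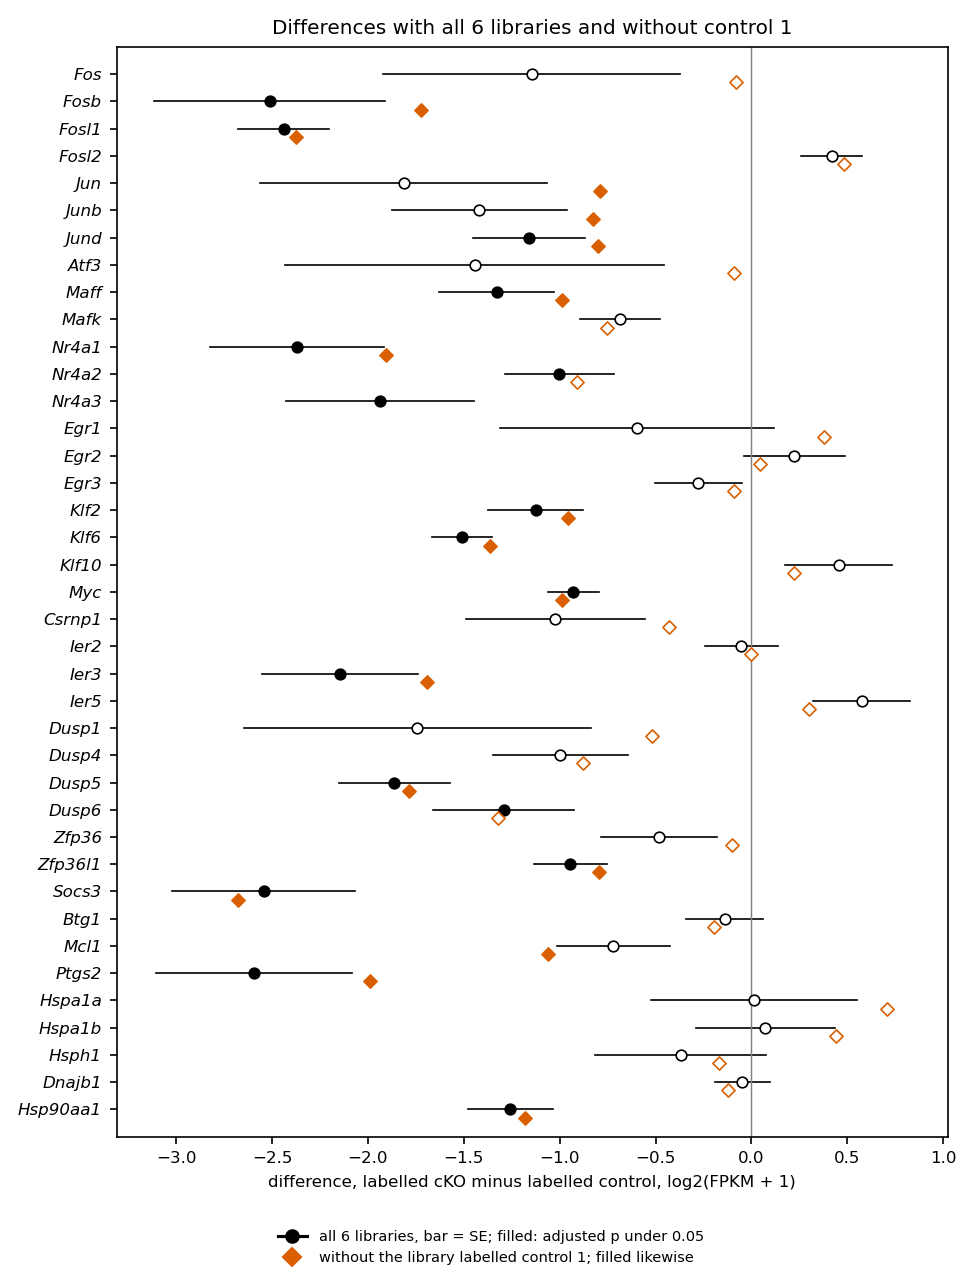
Difference between the libraries labelled cKO and those labelled control, on log2(FPKM + 1), with all 6 libraries (circles, bars are the SE) and without the library labelled control 1 (diamonds); filled symbols passed an adjusted p of 0.05. Fos, Atf3, Egr1 and Dusp1 move towards or past 0 without control 1, while Fosl1, Klf6, Myc, Dusp5, Socs3 and Hsp90aa1 stay near their first value.

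Of the 5 heat shock genes, 1 was lower in the libraries labelled cKO, where 13.6% of all genes tested were, and none was higher. Their median was -0.05, beside -0.17 over all genes tested. The median of the 5 was -0.44 without control 2, -0.23 without control 3 and -0.22 without cKO 3. It was above 0 with median-of-ratios factors (0.17) and limma-voom (0.20). Hsp90aa1, the inducible cytosolic HSP90, was at 36.8, 43.1 and 66.5 FPKM in the libraries labelled cKO 1, 2 and 3, against 128, 99.7 and 118 FPKM in those labelled control 1, 2 and 3. The groups did not overlap, and control 1 was close to control 3. It fell by 1.26 (SE 0.22, limma adjusted p = 0.00890), with a call in 14 of 14 alternatives. Dnajb1, the HSP40 partner that loads substrates on HSP70, lay between 24.8 and 28.1 FPKM in the libraries labelled cKO and between 24.4 and 30.6 FPKM in those labelled control (-0.05, SE 0.14, adjusted p = 0.842).

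The HSP70 genes Hspa1a and Hspa1b were high in 1 library of each group. Hspa1a was at 18.4, 17.5 and 26.2 FPKM in the libraries labelled cKO 1, 2 and 3, against 54.6, 10.4 and 14.1 FPKM in those labelled control 1, 2 and 3. Hspa1b was at 49.8, 48.1 and 91.1 FPKM in the libraries labelled cKO, against 96.3, 39.8 and 48.9 FPKM in those labelled control. Hsph1, the HSP110 exchange factor of HSP70, was at 2.80, 3.01 and 9.99 FPKM in the libraries labelled cKO, against 8.42, 3.80 and 6.99 FPKM in those labelled control. All 3 were highest within their groups in cKO 3 and control 1, and the groups overlapped (adjusted p = 0.991, 0.908 and 0.595 by limma). Without control 1, Hspa1a was at 0.71 (SE 0.23, adjusted p = 0.0936), each library labelled cKO lying above both control libraries. The promoters of the pair are shown because they are nearly identical. The promoters, with GAANNTTC or TTCNNGAA, a pair of the units that heat shock factors bind, in capitals, lie at chr17:34972157-34972406, minus strand, and at chr17:34959239-34959488, minus strand (GRCm38.p6, RefSeq).
Hspa1a: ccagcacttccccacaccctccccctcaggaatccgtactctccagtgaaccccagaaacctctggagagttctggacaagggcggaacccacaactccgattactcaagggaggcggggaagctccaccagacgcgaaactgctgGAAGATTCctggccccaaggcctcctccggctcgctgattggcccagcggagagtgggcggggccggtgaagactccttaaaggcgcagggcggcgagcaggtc
Hspa1b: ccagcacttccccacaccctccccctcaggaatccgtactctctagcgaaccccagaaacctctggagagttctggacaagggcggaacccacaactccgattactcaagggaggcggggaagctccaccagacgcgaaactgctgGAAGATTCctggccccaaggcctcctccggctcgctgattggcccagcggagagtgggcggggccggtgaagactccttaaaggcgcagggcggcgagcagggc
The 250 bases were 98.8% identical between the 2 genes and held 1 match each, 104 bases before the start site. A match occurred in 12.8% of all promoters, and among the other members in those of Hsph1, Jun, Fosl2 and Egr2. The longest transcripts of the 2 genes in GENCODE M21 aligned with 2560 identical bases over 3035 columns, and how the counting treated fragments that match both is not stated, so their single values are uncertain.

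Other genes of the same pathways were read from 5 lists. Of 30 tested immediate-early genes outside the 39, 13 were lower and none higher in the libraries labelled cKO, with a median of -0.67. Among all genes tested, 13.6% were lower and 5.87% higher, with a median of -0.17. Phlda1 averaged 17.5 ± 7.6 FPKM in the libraries labelled cKO and 102 ± 44 FPKM in those labelled control (SD, n = 3 each; -2.49, SE 0.40, limma adjusted p = 0.00617). Bhlhe40, a repressor of the clock, was lower by limma (-2.00, SE 0.39, adjusted p = 0.0128), as were the clock gene Per1 (-1.40, SE 0.24, adjusted p = 0.00776) and Ifrd1 (-0.80, SE 0.13, adjusted p = 0.00575). In control 1, 3 of the 30 (Arc, Bhlhe40 and Btg2) lay at least 1 log2 unit above both other controls. The 13 became 6 without control 1, 4 without control 3, 8 without cKO 1 and 6 without cKO 2.

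Of 23 upstream kinases and serum response factors, 5 were lower and none higher, with a median of -0.25, and none stood out in control 1. The shares over all genes tested were 13.6% lower and 5.87% higher, with a median of -0.17. Map2k1, which encodes the ERK kinase MEK1, was at 11.5, 10.7 and 18.1 FPKM in the libraries labelled cKO 1, 2 and 3, against 36.9, 28.9 and 27.1 FPKM in those labelled control 1, 2 and 3 (-1.17, SE 0.22, limma adjusted p = 0.0117). Mapk11, a p38 kinase (-1.65, adjusted p = 0.00489 by limma), Elk3, a partner of serum response factor (-1.52, adjusted p = 0.0202), Mapk9, which encodes JNK2 (-0.87, adjusted p = 0.0233) and Srf (-0.71, adjusted p = 0.0255), which was named after its value was seen, were the others. Srf was called in 6 of 14 alternatives. Without control 2 or control 3 only 2 of the 5 were called, and 3 without control 1. Elk3 lost its call without control 2 or 3 (adjusted p = 0.0797 and 0.0540) and Mapk9 without control 1, 2 or 3 (adjusted p = 0.0533, 0.0799 and 0.0751). None of 11 AP-1 partners and antagonists was called by limma (median -0.19).

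Of 21 heat shock factors and chaperones beyond the members, Hspb1 was higher and Hspb8, Hspa4l and Hsf1 were lower, with a median of 0.05. These counts were close to the shares over all genes tested, 5.87% higher and 13.6% lower, where the median was -0.17. Hspb1, a small heat shock protein of differentiating keratinocytes, was at 125, 106 and 154 FPKM in the libraries labelled cKO 1, 2 and 3, against 45.9, 67.6 and 81.5 FPKM in those labelled control 1, 2 and 3 (0.99, SE 0.23, limma adjusted p = 0.0235). Its call was lost without control 2, cKO 1 or cKO 3 (adjusted p = 0.0661, 0.0564 and 0.0507). Hspb8 was lower (-1.20, SE 0.22, limma adjusted p = 0.00985). Hsf1, the main heat shock factor, averaged 17.7 ± 1.7 FPKM in the libraries labelled cKO and 25.9 ± 1.9 FPKM in those labelled control (SD, n = 3 each; -0.53, limma adjusted p = 0.0390). It lost its call without any library but cKO 3 (adjusted p from 0.0782 to 0.137) and with median-of-ratios factors (-0.31, adjusted p = 0.243). Hspa4l (-0.89, adjusted p = 0.0255 by limma) lost its call without control 1, 2 or 3 or cKO 1 (adjusted p = 0.0700, 0.0692, 0.0716 and 0.0560). The 3 lower became 1 without control 2, control 3 or cKO 1.

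Of 8 tested genes often placed downstream of AP-1, Plau was higher and Plaur, Timp1 and Tgm1 were lower in the libraries labelled cKO. The shares over all genes tested were 5.87% higher and 13.6% lower. Plau, which encodes the protease urokinase, was at 71.8, 77.1 and 98.2 FPKM in the libraries labelled cKO 1, 2 and 3, against 20.4, 31.9 and 27.4 FPKM in those labelled control 1, 2 and 3 (1.61, SE 0.20, limma adjusted p = 0.00247). Its receptor gene Plaur went the other way, at 0.858, 0.923 and 0.320 FPKM in the libraries labelled cKO, against 2.21, 4.95 and 3.78 FPKM in those labelled control (-1.42, SE 0.30, limma adjusted p = 0.0156). Plaur lost its call without control 2 or 3 (adjusted p = 0.0567 and 0.0570). Tgm1, a crosslinking enzyme of the cornified envelope, fell by 0.93 (SE 0.17, limma adjusted p = 0.00945). Timp1, a metalloprotease inhibitor, was at 0.571, 0.0332 and 0 FPKM in the libraries labelled cKO, against 6.15, 1.5 and 1.55 FPKM in those labelled control (-1.60, adjusted p = 0.0396 by limma), high in control 1. Its call was lost without control 2, control 3, cKO 1, cKO 2 or cKO 3 (adjusted p = 0.0588, 0.0604, 0.0562, 0.103 and 0.0858), and it fell under the filter without control 1. The 3 lower became 1 without control 3.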

How the data were processed

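Per the file headers, the authors deposited 1 table of FPKM values for 17025 genes and 6 libraries, with library columns matched to samples through the labels. The tools fastp, HISAT2 and HTSeq and the build GRCm39 are named in the submitters' processing notes. The sources used here give no versions, annotation release, gene filter or strand setting. Low FPKM values were whole multiples of 1 fragment, and whole fragments (tolerance 1e-09) were recovered for 17024 genes of 17025, which gave the totals per library.

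A mean of 1 FPKM or more over the 6 libraries left 11603 genes. These were compared by limma 3.58.1 (R 4.3.3; group the sole term, trend on) after log2(FPKM + 1), and Benjamini-Hochberg adjusted p under 0.05 was called. Differences are the libraries labelled cKO minus those labelled control and understate changes of genes with low values. The members, roles and lists were chosen with earlier results of these data known, so no test of a list is given. Every member is reported, and outside them Ash2l and by rule those of each list that were called, up to 4, by lowest adjusted p. Exon overlaps were read from GENCODE M21 and promoters from RefSeq, both GRCm38, by gene name. Alternatives changed the pseudocount, filter, scaling, variance trend, model (a replicate block, limma-voom on fragments) and libraries. Figures were drawn with matplotlib 3.10.9.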

Additional observations from a re-analysis of the deposited data

How the results depend on the processing

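The total of 17 members called lower became 11 with no filter on low values, 10 with a filter at a mean of 5 FPKM (which tested 31 of the 39) and 10 with limma-voom on fragments, and 11 to 17 with 1 library left out. No member was called higher in the other 13 alternatives, against 1 (Egr1) on the 4 libraries left without control 1 and cKO 3, an alternative chosen after seeing the data. In 14 of 14 alternatives, or in the 13 in which they were tested, Fosl1, Nr4a1, Klf6, Myc, Ier3, Dusp5, Zfp36l1, Socs3 and Hsp90aa1 were called lower. Limma-voom did not call Fosb, Jund, Maff, Nr4a2, Nr4a3, Klf2 or Ptgs2. Over all genes, 681 higher and 1576 lower became 1044 and 1001 with median-of-ratios factors, 1024 and 942 with limma-voom, and 1172 and 2400 on the 4 libraries. With 1 library left out they were 393 to 713 higher and 710 to 1453 lower. The pathway lists had 2 genes higher and 24 lower, against 1 and 15 with no filter, 14 lower with limma-voom, 7 higher on the 4 libraries, and 1 to 3 higher and 8 to 19 lower with 1 library left out. The cause of these changes was not tested.

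With a replicate block, 432 genes were higher and 893 lower, and 17 members were lower, Junb (adjusted p = 0.0417) in place of Nr4a2. Deviations of same-numbered libraries from their group means correlated at -0.307, 0.080 and -0.261, and no library correlated best with its own number. Within a group the deviations from its mean depend on each other, so these values cannot decide whether the libraries were paired.

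Reversals concerned members that were not called with all 6 libraries. With 1 library left out, Egr1 ranged from -1.13 to 0.38, Ier2 from -0.23 to 0.074, Btg1 from -0.31 to 0.068, Hspa1a from -0.44 to 0.71, Hspa1b from -0.22 to 0.44 and Dnajb1 from -0.12 to 0.038. On the 4 libraries, Egr1 was at 0.47, Egr3 at 0.072, Ier2 at 0.10 and Btg1 at 0.014. With median-of-ratios factors Ier2 was at 0.17, Btg1 at 0.083 and Dnajb1 at 0.17, and with limma-voom these were at 0.20, 0.11 and 0.20. With 3 libraries a group, and control 1 far above the other control libraries in them, differences of genes such as Fos, Atf3 and Dusp1 are not resolved by these data.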
